A study of Mus musculus with 2 samples.

Results

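Transcript levels were followed for 8 genes that carry out regulated cell death: Fas, Casp8, Ripk1, Mlkl, Casp1, Casp4, Bax and Bak1. They were found by symbol among the 32285 genes of the feature tables, and each had counts in both libraries. The counts are unique molecular identifiers (UMIs), each standing for 1 captured transcript. Endothelial cells had been sorted from mouse skin tumors as DAPI-, CD31+ and CD45- and read by droplet single-cell 3′ RNA sequencing. Tumors came from 500K implanted cells of B16F10-OVALBUMIN/VEGFC, a melanoma line whose name gives the model antigen ovalbumin and the lymphatic growth factor VEGF-C. The same line was given into the skin of both groups and tumors were taken on day 15. The Cre plus group is Ifngr1iProx1 and the Cre minus group is Ifngr1WT. Ifngr1 encodes a subunit of the receptor for interferon-γ. Prox1, from which the labels name the Cre, encodes a transcription factor that lymphatic endothelium depends on. Strain, sex and age of the mice are not given in the sources used here. Each group is 1 library made from 3 pooled tumors, so no test between genotypes was possible, and every interval printed covers counting error only.

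Cells die by several controlled routes that these genes connect. Fas is a surface receptor that, on binding its ligand, gathers an adaptor and the initiator caspase Casp8, and Casp8 starts apoptosis. Ripk1 is the kinase and scaffold at the branch point below death receptors, and where caspase activity is blocked its partner kinase activates Mlkl, which breaches the plasma membrane in necroptosis. Casp1 and Casp4 are inflammatory caspases: Casp1 is activated in inflammasomes, while Casp4 senses cytosolic lipopolysaccharide, and both cleave gasdermin D. Bax and Bak1 are BCL-2 family proteins that open the outer mitochondrial membrane. Interferon-γ is known to induce several of these genes.

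Casp1 and Casp4 are neighbours on mouse chromosome 9 in the same orientation. On the mm10 build Casp1 runs from 5298517 to 5307265 and Casp4 from 5308828 to 5336783, and 1562 bases lie between them. Their promoters are shown because the neighbours differed in where they were detected, as described below. The windows start 250 bases before the RefSeq transcript start and end 30 bases after it. They are from RefSeq on GRCm38.p6, the mm10 assembly, and read 5′ to 3′ on the plus strand. Casp1 is at chr9:5298267-5298546 and Casp4 at chr9:5308599-5308878. Capitals mark matches, on either strand, to 3 motifs: the gamma-activated site TTCNNNGAA, the interferon regulatory factor core AANNGAAA and the NF-κB site.
Casp1: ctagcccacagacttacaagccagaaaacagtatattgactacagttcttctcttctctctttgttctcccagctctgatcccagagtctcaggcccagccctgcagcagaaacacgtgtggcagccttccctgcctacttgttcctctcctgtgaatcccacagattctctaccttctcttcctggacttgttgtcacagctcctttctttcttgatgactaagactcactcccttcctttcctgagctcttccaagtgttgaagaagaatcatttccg
Casp4: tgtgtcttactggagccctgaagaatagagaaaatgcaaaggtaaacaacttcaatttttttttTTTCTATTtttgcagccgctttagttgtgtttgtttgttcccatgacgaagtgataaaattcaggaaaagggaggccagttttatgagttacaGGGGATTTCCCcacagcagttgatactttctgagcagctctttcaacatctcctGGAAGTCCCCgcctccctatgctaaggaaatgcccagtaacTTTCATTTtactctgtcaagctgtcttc
In Casp4 the matches on the minus strand to the interferon regulatory factor core read TTTCTATT and TTTCATTT on the printed strand. NF-κB matches were GGGGATTTCC and GGGATTTCCC, which overlap, and GGAAGTCCCC. None of the 3 motifs matched in the Casp1 window. All 8 genes had a RefSeq window of 300 bases, reaching 50 bases past the start. The gamma-activated site was present in Fas as TTCTGGGAA and in Ripk1 as TTCCCGGAA, and the interferon regulatory factor core in Fas, Casp4, Casp8 and Ripk1. Mlkl, Bax and Bak1 had no match in these windows. Of 32851 windows in the table, 8.30% held a gamma-activated site, 23.9% an interferon regulatory factor core and 6.93% an NF-κB site, so a match by itself is common.

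The libraries held 2491 (Cre plus) and 2502 (Cre minus) barcodes with 66704257 and 76967583 UMIs, and they shared 1 barcode sequence. Barcodes were gated by summed markers of 9 rival cell types. That gave 730 and 202 lymphatic endothelial, 183 and 211 blood endothelial, 527 and 882 melanoma and 46 and 64 macrophage barcodes, with Cre plus first. The label is endothelial, so the melanoma and macrophage barcodes are cells that passed the sort. Another 246 and 154 barcodes carried markers of more than 1 type, or under 3 markers of the leading type, and were left out. A further 45 and 36 barcodes were gated to other types, outside these 4 classes. Prox1 stood at 579 and 410 CPM (UMIs scaled to a total of 1e+06) in the lymphatic class against 0.743 and 0 CPM in the blood class. The 10 macrophage markers summed to 586 and 570 CPM in lymphatic barcodes, of which the macrophage and lymphatic gene Mrc1 gave 523 and 482 CPM, and to 40.4 and 31.2 CPM in blood barcodes. The defining leukocyte marker Ptprc was at 0.427 and 0 CPM in lymphatic barcodes.

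Several properties set the libraries apart and stand beside every result in lymphatic barcodes. Barcodes with at least 0.1% of UMIs from Malat1, a nuclear non-coding RNA, made up 58.6% of Cre plus lymphatic barcodes but 18.3% of Cre minus ones, with median depths of 16808 and 6046 UMIs. In blood barcodes the shares were 75.4% and 63.5%, in melanoma 40.6% and 41.6%, and in macrophages 93.5% and 87.5%. Different clusters also held most of the lymphatic class: cluster 6 held 395 of the Cre plus barcodes, and cluster 1 held 155 of the Cre minus ones. The median gene of the lymphatic class was 0.27 higher in Cre plus on the log2 scale, against -0.0021 in the blood, 0.03 in the melanoma and 0.01 in the macrophage class.

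Ifngr1 was measured first as a check of the genotype label. It stood at 29.3 and 45.8 CPM in lymphatic barcodes, Cre plus first as throughout, a log2 ratio of -0.64 (95% interval -0.97 to -0.30). In blood barcodes it stood at 186 and 153 CPM (0.28, 0.11 to 0.45), in melanoma at 10.6 and 11.6 CPM, and in macrophages at 113 and 160 CPM (-0.50, -0.76 to -0.24). Transcript was thus still counted in Cre plus lymphatic barcodes. A 3′ tag can lie outside a deleted part, and the labels do not say which part was targeted.

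Free RNA was read in barcodes with over 50% haemoglobin UMIs, 234 and 223 by library, which held 100151 and 113672 other UMIs. Fas, Casp4 and Ripk1 had 0 UMIs there in both libraries, which allows up to 30.0 and 26.4 CPM by a floor of 3 counts. Bax had 13 and 7 UMIs (130 and 61.6 CPM), Bak1 4 and 0, Casp8 2 and 0, Mlkl 1 and 0 and Casp1 0 and 1. Of the 8 genes Bax thus had the most UMIs in these barcodes, and the free-RNA level of the others is poorly bounded. Every level of Fas in the 4 classes lies under the limit that its count of 0 allows, as do those of Casp4 in blood and melanoma, of Ripk1 in melanoma and of Mlkl in Cre minus melanoma and macrophages. In Cre plus, the lymphatic, blood and melanoma levels of Casp1 also lie under the limit of its count of 0. The 1 UMI of Casp1 in Cre minus is 8.80 CPM, above its levels in the same classes there. The 4 UMIs of Bak1 in Cre plus are 39.9 CPM. These limits and values are shares of the few other UMIs in the haemoglobin barcodes, while the class barcodes were far deeper. The share of free RNA in the class barcodes was not measured, so its part in the class levels was not tested.

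The other genes lie apart in the genome (mm10, GENCODE M21). Fas is on chromosome 19 from 34290666 to 34327772, Casp8 on chromosome 1 from 58795374 to 58847503 and Ripk1 on chromosome 13 from 34002363 to 34037147, all on the plus strand. Mlkl on chromosome 8 (111311797 to 111338177), Bax on chromosome 7 (45461697 to 45466898) and Bak1 on chromosome 17 (27019810 to 27029009) are on the minus strand. Counts cover reads assigned to the gene as a whole, so no isoform is resolved.

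Fas, the death receptor, was counted most in macrophages and least in melanoma among the 4 classes. Its level in Cre plus and Cre minus was 14.4 and 23.9 CPM in macrophage barcodes, 6.68 and 7.15 CPM in blood, 2.56 and 1.01 CPM in lymphatic and 0.268 and 0.132 CPM in melanoma barcodes. The order was the same in both libraries, and the highest value was 182-fold the lowest. The lymphatic values came from 42 and 2 UMIs and the melanoma values from 10 and 8 UMIs. In Cre minus the intervals of lymphatic (0.122 to 3.63 CPM) and melanoma (0.0568 to 0.259 CPM) overlapped, so those neighbours were not separated there. Outside the classes, the 8 and 10 T and NK barcodes had 78.7 and 53.4 CPM from 11 and 8 UMIs, and T and NK markers summed to 341 and 217 CPM in the macrophage barcodes.

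Casp8, the initiator caspase, was present in every class at levels within 2.88-fold of each other. Blood barcodes had 113 and 88.1 CPM, macrophages 97.0 and 84.6 CPM, lymphatic barcodes 52.4 and 47.8 CPM and melanoma 39.2 and 40.6 CPM. The order was the same in both libraries, although blood and macrophage levels differed by less than counting error (log2 0.22, -0.04 to 0.48, and 0.06, -0.22 to 0.34). Blood barcodes exceeded lymphatic ones 2.15-fold in Cre plus and 1.84-fold in Cre minus.

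Ripk1, the kinase that Fas and tumor necrosis factor receptors share, followed a like pattern with a wider range. It was at 82.4 and 69.9 CPM in blood, 75.3 and 75.1 CPM in macrophage, 42.6 and 35.7 CPM in lymphatic and 17.8 and 17.4 CPM in melanoma barcodes. Blood exceeded melanoma 4.62- and 4.02-fold and exceeded lymphatic 1.93- and 1.96-fold, while blood and macrophages changed places between libraries within counting error. Ripk1 overlaps Serpinb6a on the opposite strand, and Bphl begins within 500 bases of its 3′ end, so reads of these genes may not be fully separated.

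Mlkl, the executioner of necroptosis, had its highest level among the 4 classes in lymphatic barcodes in both libraries. There it stood at 52.3 and 47.8 CPM, against 37.6 and 41.0 CPM in blood, 26.8 and 23.1 CPM in melanoma and 33.8 and 13.9 CPM in macrophage barcodes. Lymphatic barcodes exceeded melanoma 1.95- and 2.07-fold and macrophages 1.55- and 3.43-fold. Lymphatic over blood was 0.47 (0.22 to 0.73) in Cre plus but 0.22 (-0.18 to 0.62) in Cre minus on the log2 scale, so the top place was not separated from blood in Cre minus. Outside the 4 classes, the 29 and 21 pericyte and fibroblast barcodes had 38.8 and 55.6 CPM, from 51 and 30 UMIs.

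The inflammatory caspases differed from each other although they are neighbours in the genome. Casp1 was mostly a macrophage transcript, at 50.4 and 59.2 CPM there, 9.16 and 8.13 CPM in blood, 1.40 and 1.51 CPM in lymphatic and 0.482 and 0.378 CPM in melanoma barcodes. Macrophages exceeded lymphatic barcodes 35.9- and 39.2-fold, with 23 and 3 UMIs in the lymphatic barcodes. The lymphatic, blood and melanoma levels of Casp1 did not exceed the free-RNA limit or value of their library given above. The part of free RNA in these levels was not tested. Casp4 was also highest in macrophages, at 84.8 and 62.2 CPM, but lymphatic barcodes came next with 39.8 and 27.7 CPM, ahead of blood with 25.7 and 14.3 CPM and melanoma with 2.38 and 1.25 CPM. Lymphatic over blood was 0.63 (0.33 to 0.94) and 0.95 (0.35 to 1.56) for Casp4, while for Casp1 it was -2.71 (-3.52 to -1.92) and -2.43 (-4.80 to -0.72). The order of the 4 classes was thus the same in both libraries for each caspase, with lymphatic and blood barcodes in opposite order between them.

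Bax and Bak1, the mitochondrial pore formers, varied least among the classes. Bax was at 301 and 342 CPM in lymphatic, 250.5 and 218 CPM in blood, 234 and 228 CPM in melanoma and 269.8 and 254 CPM in macrophage barcodes, a range of 1.57-fold. Lymphatic barcodes had the highest Bax in both libraries. Among barcodes with at least 0.1% Malat1 UMIs this held in Cre plus (284 CPM against 270 CPM in macrophages) but not in Cre minus (239 against 249 CPM). Bak1 was at 54.2 and 56.3 CPM in lymphatic, 61.6 and 41.6 CPM in blood, 44.5 and 41.9 CPM in melanoma and 59.8 and 57.7 CPM in macrophage barcodes, a range of 1.48-fold. Blood barcodes were highest for Bak1 in Cre plus and lowest in Cre minus, so the order was not shared. Ggnbp1 lies on the opposite strand at the 3′ end of Bak1.

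**Figure D1:**
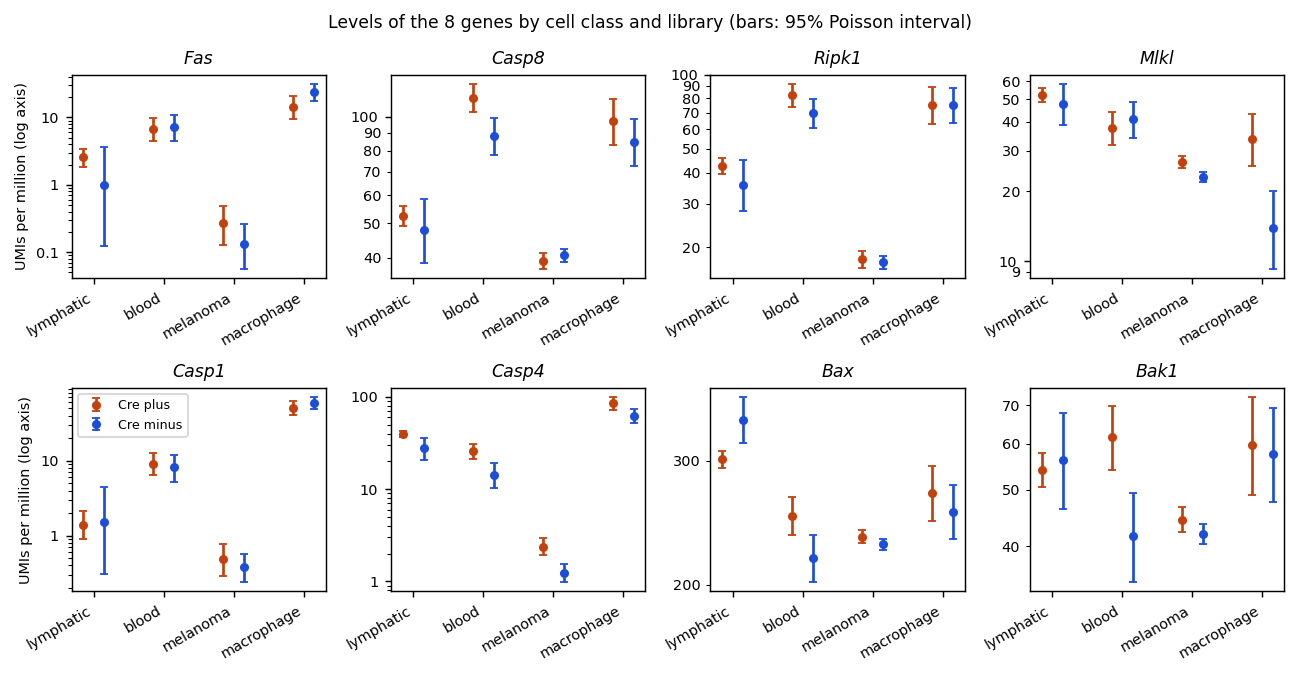
Level of each gene in CPM (log axis) in the lymphatic, blood, melanoma and macrophage barcodes of the Cre plus and Cre minus libraries, with exact Poisson 95% intervals as bars. Fas, Casp1 and Casp4 span 182-, 157- and 67.8-fold with macrophages at the top, whereas Bax and Bak1 stay within 1.57- and 1.48-fold.

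A difference between classes was counted where it passed 1.5-fold in 1 direction in both libraries with both intervals off 0, among genes with at least 50 UMIs over the pair in each library. Between lymphatic and blood barcodes, 1 of 6 genes was higher (Casp4; 8.63% of all genes tested were) and 2 were lower (Casp8 and Ripk1; 11.8% of all genes). Against melanoma, lymphatic barcodes were higher in 3 of 6 (Casp4, Ripk1 and Mlkl; 24.3% of all genes) and lower in 0 (22.5%). Against macrophages they were higher in 1 of 8 (Mlkl; 23.3%) and lower in 5 (Fas, Casp1, Casp4, Casp8 and Ripk1; 18.8%). Blood barcodes were higher than melanoma in 3 of 6 (Casp4, Casp8 and Ripk1; 28.5%) and lower in 0 (27.0%), and were higher than macrophages in 0 of 8 (25.3%) and lower in 3 (Fas, Casp1 and Casp4; 16.9%). Melanoma barcodes were higher than macrophages in 0 of 7 (27.1%) and lower in 4 (Casp1, Casp4, Casp8 and Ripk1; 22.3%). With so few genes these shares are a description. Bax and Bak1 passed in none of the 6 pairs.

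Genes with the most similar pattern were looked up by Pearson correlation of log2(CPM + 1) over the 8 sums of 4 classes and 2 libraries, among 11428 genes. These correlations are descriptions, since the 8 points share libraries and depth. For Fas the closest were Eea1 (r = 0.993), Galnt7 and Hpgd, and for Casp1 Eepd1 (0.994), Rab8b and Slc28a2. For Casp4 the closest were Ifi204 (0.996), an interferon-inducible DNA sensor family gene, Parp8 and Arid5b. Casp8 was matched by Sat1 (0.988), Abcb1a and Sdf4, Ripk1 by Pik3r6 (0.994), Abi3 and Itm2b, and Mlkl by Deaf1 (0.981), Ercc8 and Slc30a4. Bax was matched by Ropn1l (0.980), Nans and Mfsd4b4, and Bak1 by Eaf2 (0.941), H2-T22 and Tfip11. Such matches were plentiful for Casp4, with 451 genes over 0.9 (3.95%), and rare for Bak1, with 5 (0.0438%). Among the 8 genes themselves, Fas and Casp1 were the closest pair (0.97), followed by Casp8 and Ripk1 (0.95).

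The genotypes were then compared within each class as the log2 ratio of Cre plus over Cre minus, and a gene was called where the ratio passed 1.5-fold with an exact 95% interval off 0 and at least 50 UMIs were summed. In lymphatic barcodes, the class named for the Cre, 0 of 6 genes with enough UMIs were called higher and 0 lower, beside 16.0% and 1.92% of all genes tested. Casp4 had the highest ratio, 0.53 (0.13 to 0.95), from 653 and 55 UMIs, or 1.44-fold. Relative to the median gene of the class that is 0.26, and the interval spans 0 after median-ratio, TMM or span-centred scaling and under the stricter gate. Without the 5 barcodes with the most Casp4 in each library the ratio was 0.94 (0.46 to 1.47). Those barcodes held 10.3% of its UMIs for Cre plus but 34.5% for Cre minus. The removal was thus unequal, and the higher ratio is no check of the 0.53. Bax was lower in Cre plus at 4943 and 681 UMIs, with -0.18 (-0.30 to -0.07), or -0.45 relative to the median gene. Casp8 gave 0.13 (-0.17 to 0.46), Ripk1 0.26 (-0.10 to 0.63), Mlkl 0.13 (-0.18 to 0.45) and Bak1 -0.06 (-0.34 to 0.24). The median of the 6 was 0.13 against 0.27 for all genes tested. Fas (1.35, -0.59 to 4.44) and Casp1 (-0.11, -1.83 to 2.27) had too few UMIs to be placed, and a difference of severalfold was not detectable for them at this depth.

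Blood endothelial barcodes come from the same sort and have almost no Prox1. There 1 of 7 genes was called higher, Casp4, beside 5.72% of all genes, and 0 lower, beside 4.40%. Casp4 stood at 104 and 44 UMIs, a log2 ratio of 0.85 (0.33 to 1.39) or 1.80-fold. Bak1 came close with 249 and 128 UMIs, 0.57 (0.25 to 0.89) or 1.48-fold. Casp8 (0.36, 0.14 to 0.58) and Bax (0.20, 0.06 to 0.34) were also above 0 by more than counting error. Ripk1 (0.24, -0.01 to 0.49), Casp1 (0.17, -0.60 to 0.97), Mlkl (-0.12, -0.47 to 0.23) and, with 49 UMIs in all, Fas (-0.10, -0.96 to 0.78) were not. The 7 genes had a median of 0.24 against -0.0021 for all genes.

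In melanoma barcodes, from the line implanted in both groups, 1 of 6 genes was called higher, again Casp4, beside 2.37% of all genes, and 0 lower, beside 1.82%. Casp4 had 89 and 76 UMIs, a ratio of 0.93 (0.47 to 1.39) or 1.91-fold. These counts were concentrated: 35 of 527 and 45 of 882 barcodes held a Casp4 UMI, and 1 Cre plus barcode held 18. The 5 barcodes with the most Casp4 held 46.1% and 31.6% of its UMIs, without them Casp4 was not called, and a mean that weighs barcodes equally gave -0.24. The lymphatic marker Ccl21a stood at 12.2 and 3.78 CPM in the same barcodes, and its part in the Casp4 value was not tested. Mlkl was 0.22 higher (0.10 to 0.33) from 1000 and 1404 UMIs, and Casp8, Ripk1, Bax and Bak1 lay between -0.05 and 0.08 with intervals that include 0.

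In macrophage barcodes 1 of 8 genes was called higher, Mlkl, beside 7.90% of all genes, and 1 lower, Fas, beside 5.19%. Mlkl had 61 and 28 UMIs, a log2 ratio of 1.28 (0.61 to 1.98) or 2.43-fold, and was found in 23 of 46 and 15 of 64 barcodes, with median depths of 31154 and 25434 UMIs. Thinned to 2000 UMIs each, 6.67% and 1.97% of barcodes held one. Lymphatic markers, which belong to the class where Mlkl is highest, summed to 617 and 254 CPM in these barcodes. Under a stricter gate they summed to 120 and 145 CPM, and Mlkl stood at 36.5 and 13.3 CPM, from 40 and 21 UMIs. T and NK markers summed to 341 and 217 CPM in the macrophage barcodes, and their part in the result was not tested. Fas had 26 and 48 UMIs, with -0.73 (-1.48 to -0.01), and 5 barcodes held 57.7% and 56.2% of them. Without those barcodes, and under 5 other settings, Fas was not called. Casp4 was at 0.45 (0.10 to 0.80).

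**Figure D2:**
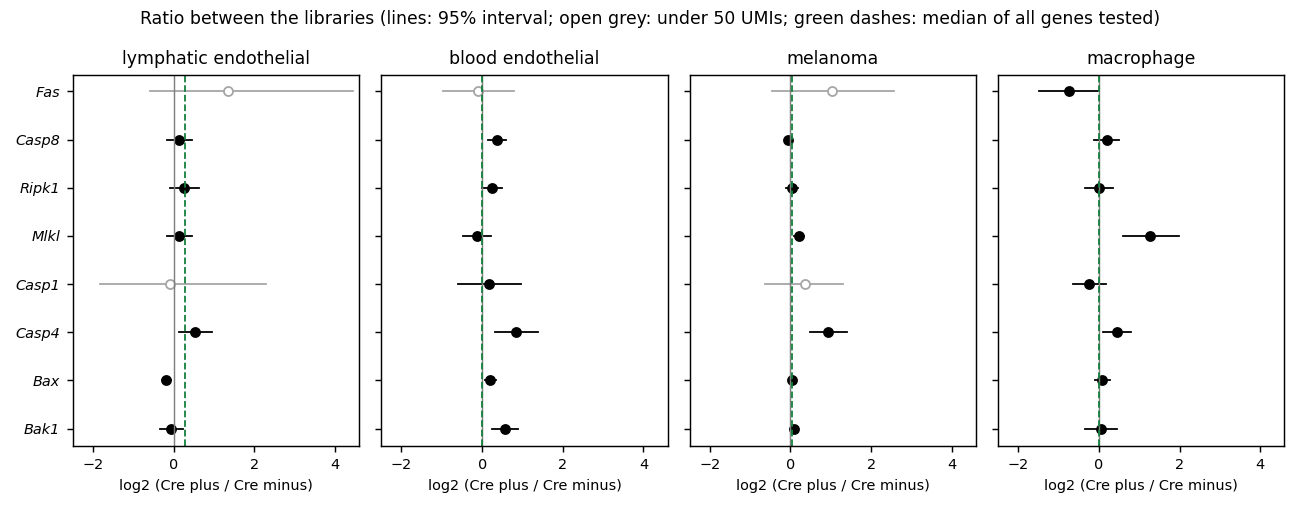
Log2 ratio of Cre plus over Cre minus for each gene in the 4 classes, with exact 95% intervals as bars. Open grey points have under 50 UMIs and green dashes mark the median of all genes of the class (0.27 in lymphatic barcodes). Casp4 lies above 0 in all 4 classes (though at -0.43 within Malat1-poor lymphatic barcodes), and Mlkl in macrophages (1.28) is the highest value among genes with enough UMIs.

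Casp4 was thus above 0 by more than counting error in 4 of 4 classes when all barcodes were summed and scaled to totals. Between the lymphatic and the blood class the difference of its ratios was -0.32 (-0.97 to 0.32). Lymphatic minus blood was -0.39 (-0.57 to -0.20) for Bax and -0.62 (-1.04 to -0.21) for Bak1, beyond counting error. In Malat1-poor barcodes the order of Bax was the reverse, at -0.09 in lymphatic and -0.30 in blood barcodes. Blood minus melanoma was 0.41 (0.17 to 0.64) for Casp8 and 0.48 (0.16 to 0.80) for Bak1. These intervals cover counting error in 4 sums and not differences between animals, and the libraries are shared by all classes.

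Because the Malat1-rich share differed between the libraries, the comparison was repeated within Malat1-rich barcodes, 428 and 37 in the lymphatic class. There 1 of 6 genes was called higher, Casp4, beside 6.10% of all genes, and 0 lower, beside 11.9%. Casp4 had 600 and 24 UMIs and a ratio of 0.62 (0.03 to 1.27), with the median gene at -0.09. In Malat1-poor lymphatic barcodes, 302 and 165, Casp4 had 53 and 31 UMIs and lay at -0.43 (-1.10 to 0.26), so the strata did not share a direction. Bax changed sign as well, from -0.18 over all lymphatic barcodes to 0.25 (0.04 to 0.46) in the Malat1-rich ones, and stood at -0.09 (-0.25 to 0.07) in the Malat1-poor ones. Ripk1 went from 0.26 to -0.40 (-0.81 to 0.04) in the Malat1-rich barcodes. Mlkl (0.06), Casp8 (-0.10) and Bak1 (0.21) had intervals that include 0 there.

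Blood barcodes were divided the same way. In the 138 and 134 Malat1-rich blood barcodes 2 of 7 genes were called higher, Casp4 and Bak1, beside 7.29% of all genes, and 0 lower, beside 8.52%. Casp4 stood at 0.72 (0.18 to 1.28), Bak1 at 0.76 (0.41 to 1.13) and Bax at 0.44 (0.28 to 0.61). In the 45 and 77 Malat1-poor blood barcodes Bax was at -0.30 (-0.68 to 0.07) and Bak1 at -0.01 (-0.92 to 0.84), from 18 and 36 UMIs, and 0 of 3 genes with enough UMIs were called. The higher Bak1 and Bax of Cre plus blood barcodes were counted in the Malat1-rich ones.

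**Figure D3:**
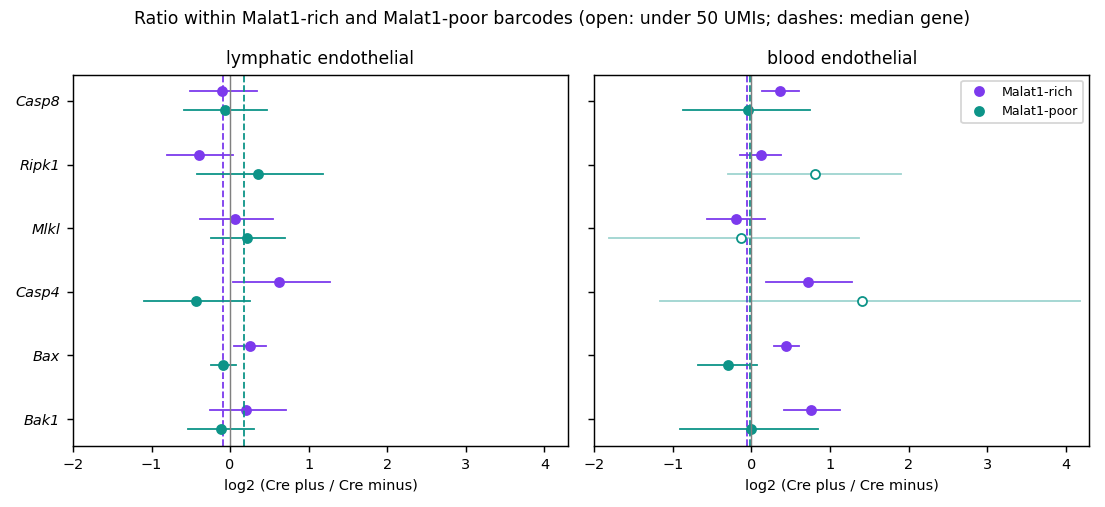
Log2 ratio of Cre plus over Cre minus for Casp8, Ripk1, Mlkl, Casp4, Bax and Bak1 in Malat1-rich and Malat1-poor barcodes of the lymphatic and blood classes, with exact 95% intervals as bars. In lymphatic barcodes Bax stands at 0.25 in the Malat1-rich stratum and Casp4 at -0.43 in the Malat1-poor one. The Bax value over all lymphatic barcodes, -0.18, is not drawn.

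Within a library, the strata themselves differed in the mitochondrial pore genes. Bax was at 284 CPM in Malat1-rich and 394 CPM in Malat1-poor lymphatic barcodes of Cre plus, a log2 ratio of -0.47 (-0.57 to -0.37), and at 239 and 419 CPM in Cre minus (-0.81, -1.06 to -0.57). In blood barcodes the ratios were -0.40 (-0.72 to -0.07) and -1.15 (-1.38 to -0.90), and in melanoma -0.11 and -0.22. Bax was thus lower in the Malat1-rich barcodes in all 6 class and library pairs, each time with an interval off 0. Bak1 was below 0 in the same 6 pairs, between -0.92 and -0.13, with 4 of the intervals including 0. Ripk1 was above 0 in all 6, between 0.31 and 1.89. The median gene was higher in Malat1-rich barcodes in each pair, by 0.26 to 0.82.

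The genes also differ in genomic span. Bax spans 5202 bases and Bak1 9200, against 34785 for Ripk1 and 52130 for Casp8. Among genes under 10 kb the median ratio of Malat1-rich over Malat1-poor lymphatic barcodes was 0.17 for Cre plus and -0.51 for Cre minus. Among genes of 100 kb or more it was 2.07 and 2.86. For blood barcodes the medians were -0.19 and -0.50 under 10 kb and 1.95 and 2.51 from 100 kb. Bax was below the median of genes under 10 kb in both libraries of the lymphatic and the blood class. Bak1 was below it in Cre plus lymphatic (-0.14) and Cre minus blood barcodes (-0.92). It was slightly above it in Cre minus lymphatic (-0.47) and Cre plus blood barcodes (-0.15). Casp8, the longest of the 8, did not have the highest ratio: it stood at 0.56 and 0.59 in lymphatic and at 0.54 and 0.13 in blood barcodes, under Ripk1 and under the median of genes of 30 to 100 kb (1.17 and 1.42 in lymphatic, 1.05 and 1.28 in blood). The part of span or of nuclear RNA in the genotype ratios was not tested.

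Barcodes with at least 10% mitochondrial UMIs, often read as damaged cells, had been left out above and were compared with the rest on non-mitochondrial UMIs. Bax was lower in them in all 6 class and library pairs. It was called lower in Cre minus lymphatic, Cre minus blood and Cre plus melanoma barcodes, beside 5.38%, 11.4% and 10.3% of all genes. Bak1 was also lower in each pair, and was called in Cre plus blood barcodes (0 against 249 UMIs, beside 9.03%). In melanoma Bax was at 149 against 243 CPM in Cre plus (-0.70, -1.02 to -0.41). In Cre minus melanoma it was at 168 against 237 CPM (-0.50, -0.66 to -0.34). In blood barcodes it was at 144 against 256 CPM (-0.83, -1.96 to 0.10) and 101 against 224 CPM (-1.15, -1.89 to -0.50). In lymphatic barcodes the ratios were -0.61 (-1.32 to 0.02) and -1.88 (-3.50 to -0.64), from 20 and 5 UMIs in the high-mitochondrial barcodes. The median over genes with a UMI in the high-mitochondrial barcodes lay between -0.05 and 0.21, and this choice of genes raises it. The depth of the high-mitochondrial barcodes was lower, with medians of 2425 to 8206 UMIs. Their Malat1-rich share was 67.4% and 45% in lymphatic barcodes, against 58.6% and 18.3% in the rest. In blood it was 88.2% and 86.2% against 75.4% and 63.5%, and in melanoma 23.7% and 31.5% against 40.6% and 41.6%. The part of depth or of this share in the Bax ratios was not tested. At a limit of 20% the ratio in Cre plus blood barcodes was 0.58, from 7 UMIs, and the other 5 stayed below 0. Mlkl was higher in the high-mitochondrial blood barcodes of Cre minus, at 117 against 42.1 CPM (1.47, 0.75 to 2.13) from 22 UMIs, as were 13.2% of all genes tested. At the 20% limit this Mlkl ratio was 0.85 (-0.80 to 2.11) from 5 UMIs. In Cre plus blood barcodes Mlkl was at -0.26 (-3.32 to 1.61) at the 10% limit.

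**Figure D4:**
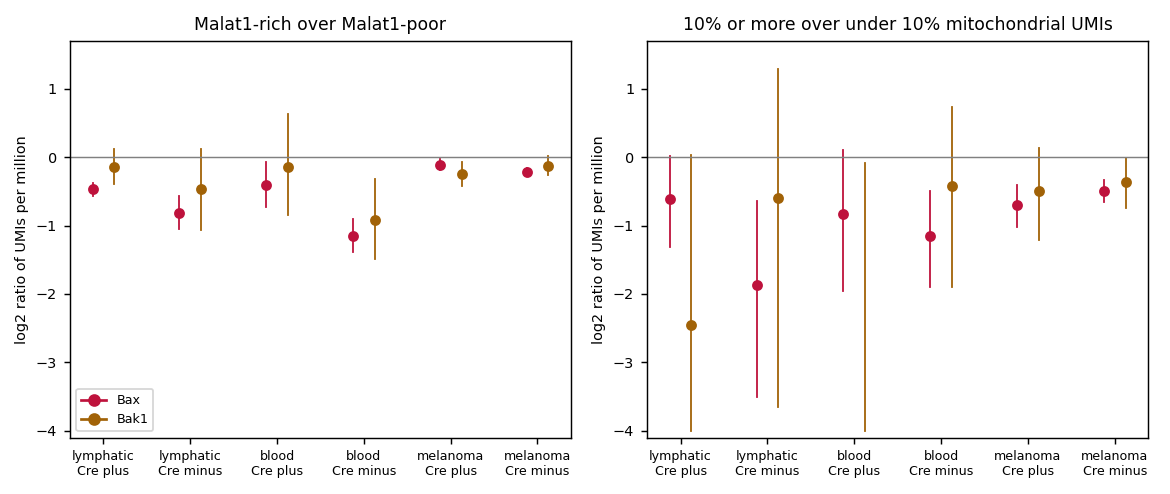
Log2 ratio of Bax and Bak1 in Malat1-rich over Malat1-poor barcodes (left) and in barcodes with at least 10% over under 10% mitochondrial UMIs (right), for 3 classes and both libraries, with exact 95% intervals, drawn no lower than -4. Bax is below 0 in 6 of 6 pairs on each side; Bak1 has no point for Cre plus blood barcodes on the right, where it had 0 UMIs.

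Around these 8 genes, 66 other genes of the same pathways were counted. In lymphatic barcodes 11 of 52 with enough UMIs were called higher and 1 lower (21.2% and 1.92%, beside 16.0% and 1.92% of all genes), with a median of 0.26 against 0.27. In blood barcodes 11 of 48 were called higher and 1 lower (22.9% and 2.08%, beside 5.72% and 4.40%), with a median of 0.21 against -0.0021. Melanoma had 3 higher and 2 lower of 51 (5.88% and 3.92%, beside 2.37% and 1.82%). Macrophages had 4 and 4 of 54 (7.41% each, beside 7.90% and 5.19%), near the background. Several of the lymphatic calls depended on scaling: with the median gene set to 0, 4 were higher and 3 lower. The share of all genes called under that scaling is not given here. Within Malat1-rich lymphatic barcodes 7 were higher and 5 lower, beside 6.10% and 11.9% of all genes.

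Of the death ligands and receptors, 4 of 6 were called higher in Cre plus lymphatic barcodes, beside 16.0% of all genes. Relative to the median gene only Tnfrsf1b stayed past 1.5-fold, since Tnfrsf1a stood at 0.42, Tnfsf10 at 0.39 and Tnfrsf21 at 0.33. Tnfrsf1a, the main receptor of tumor necrosis factor, stood at 65.7 and 40.7 CPM (0.69, 0.36 to 1.04), and at 0.17 (-0.23 to 0.60) in Malat1-rich barcodes. Tnfrsf1b, its second receptor, had 65 and 1 UMIs in lymphatic barcodes (2.98, 0.45 to 8.30) and 45 and 10 UMIs in blood (1.78, 0.77 to 2.93). Tnfsf10, the ligand TRAIL, stood at 79.2 and 43.2 CPM in blood barcodes (0.87, 0.58 to 1.18). In macrophages Tnf itself was at 94.7 and 46.3 CPM (1.03, 0.66 to 1.41). Of the adaptors and complex regulators, 3 of 14 were called higher in lymphatic (16.0% of all genes) and 2 of 13 in blood barcodes (5.72%). Of the lymphatic ones Traf2 (0.40) and Birc3 (0.33) were under 1.5-fold relative to the median gene. Tnfaip3, a ubiquitin-editing inhibitor of NF-κB signalling, had 122 and 1 UMIs in lymphatic barcodes (3.89, 1.38 to 9.20), and Birc3, an inhibitor of apoptosis that ubiquitinates Ripk1, stood at 35.4 and 18.5 CPM in blood (0.93, 0.48 to 1.40).

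Of the 12 listed inflammasome and pyroptosis genes, which work with Casp1 and Casp4, 4 had enough UMIs in blood barcodes. All 4 were called higher there, beside 5.72% of all genes. They were Pycard, the inflammasome adaptor, at 18.3 and 7.15 CPM (1.36, 0.65 to 2.11), and 3 genes picked out after their values were seen. Aim2, a DNA sensor, stood at 15.3 and 7.80 CPM (0.98, 0.28 to 1.72). Gsdmd, the gasdermin that both caspases cleave, stood at 19.1 and 9.43 CPM (1.02, 0.38 to 1.68), and Ninj1, which ruptures the membrane of dying cells, at 59.9 and 34.5 CPM (0.80, 0.46 to 1.14). All 4 were also called in Malat1-rich blood barcodes, at 1.40, 1.07, 1.27 and 0.99, beside 7.29% of all genes. In lymphatic barcodes 0 of 4 were called higher and 1 lower, beside 16.0% and 1.92% of all genes. The lower one was Gsdmd, at 8.78 and 14.6 CPM (-0.73, -1.32 to -0.10). It was not called in Malat1-rich lymphatic barcodes (-0.34, -1.31 to 0.83). In macrophages Il1b, the cytokine that Casp1 matures, was at 245 and 452 CPM (-0.88, -1.05 to -0.71).

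Of the 2 other necroptosis genes 1 was called higher in blood barcodes, beside 5.72% of all genes. That was Zbp1, a nucleic acid sensor upstream of Mlkl, at 33.7 and 12.7 CPM (1.41, 0.89 to 1.96). In lymphatic barcodes it stood at 86.9 and 123 CPM (-0.50, -0.70 to -0.30). The value in Malat1-rich lymphatic barcodes was 0.24 (-0.15 to 0.65).

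BCL-2 family genes that act on Bax and Bak1 also differed. Of the pro-apoptotic ones, 3 of 10 were called higher in lymphatic barcodes, beside 16.0% of all genes. Bbc3, which encodes PUMA, stood at 24.5 and 8.05 CPM (1.60, 0.89 to 2.42) and Bik at 141 and 63.9 CPM (1.14, 0.88 to 1.41). Both were also higher in Malat1-rich lymphatic barcodes, at 1.36 and 1.65. Bcl2l11, which encodes BIM, stood at 52.0 and 30.2 CPM (0.78, 0.41 to 1.19), at 0.51 relative to the median gene and at 0.01 in the Malat1-rich ones. The anti-apoptotic Bcl2 was called lower in blood barcodes, at 134 and 235 CPM (-0.81, -0.97 to -0.65). Over all lymphatic barcodes it was not called (-0.21, -0.41 to -0.0068). Within Malat1-rich barcodes it was called lower in both, at 140 and 281 CPM in blood and 118 and 266 CPM in lymphatic barcodes (-1.17, -1.37 to -0.96). Within Malat1-poor ones the direction was the reverse, at 1.17 (0.22 to 2.25) in lymphatic barcodes. In Malat1-poor blood barcodes it was 1.64 (0.14 to 3.25), from 11 and 7 UMIs. Bcl2 was called higher in macrophages, at 153 and 78.1 CPM (0.97, 0.69 to 1.27). In macrophages the pro-apoptotic Bok was at 23.8 and 5.97 CPM (1.997, 1.05 to 3.06). Bok is abundant in lymphatic barcodes, at 442 and 401 CPM, and the lymphatic markers of the macrophage barcodes moved the same way (617 and 254 CPM), whose part in the Bok value was not tested. Also in macrophages, Bnip3, a mitophagy receptor, was at 171 and 100.5 CPM (0.77, 0.51 to 1.03), while Birc5, which encodes survivin, was at 42.1 and 64.2 CPM (-0.61, -1.04 to -0.19). In melanoma the calls were Bok (1.26), Bik (1.36), Casp12 (1.17), Nlrc4 (-0.95) and Bmf (-0.79), all from under 100 summed UMIs. The lymphatic markers in melanoma barcodes summed to 52.2 and 43.0 CPM, with Ccl21a at 12.2 and 3.78 CPM. Lymphatic barcodes had 442 and 401 CPM of Bok and the Bik levels given above, and the part of that RNA in these calls was not tested.

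**Figure D5:**
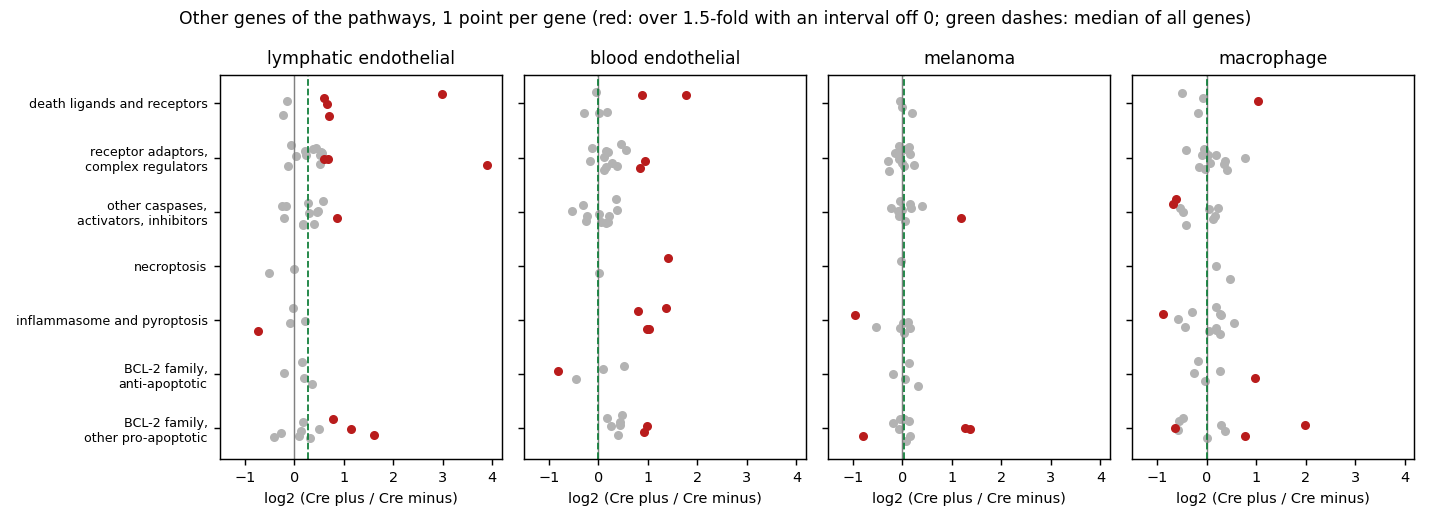
Log2 ratio of Cre plus over Cre minus for the other genes of the pathways in 7 role groups and 4 classes, 1 point a gene with at least 50 UMIs, red where called. The inflammasome and pyroptosis genes of blood barcodes are all red and above 0 (4 of 4, beside 5.72% of all genes). In lymphatic barcodes 1 of 4 is red, below 0 (beside 1.92% of all genes).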

How the data were processed

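UMI counts per gene and barcode were deposited as whole numbers, per the file headers. Cell Ranger 7.0.0 and mm10 are listed in the submitters' processing notes. The 8 genes and all lists were chosen with earlier results of these data known. Barcodes with at least 500 genes, under 10% mitochondrial and at most 50% haemoglobin UMIs passed (1777 in Cre plus, 1549 in Cre minus). No doublet caller was run. A barcode joined the class with the leading mean log marker score if at least 3 markers had a UMI and no rival reached 50% of that score. Each class was summed within its library and expressed as CPM. Levels have exact Poisson, ratios exact conditional binomial 95% intervals, and differences between ratios Wald intervals. Named genes were all members, Ifngr1, up to 6 called pathway genes per class by the interval bound nearest 0, and the 3 most similar genes per member. Positions were matched by identifier for 99.85% of genes. The scripts used Python 3.11.15 with scanpy 1.11.5 (17 Leiden clusters from 1984 variable genes) and R 4.3.3 with edgeR 4.0.16 for TMM factors, and were tested on simulated data. Alternatives covered filter, gate, clusters, scaling, Malat1 strata, cycling, thinning and UMI minimum.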

Additional observations from a re-analysis of the deposited data

Results flagged for a closer look

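Some genes lay on opposite sides of 0 in lymphatic and blood endothelial barcodes, and with 1 library per genotype these differences were not tested. Bax was -0.18 in lymphatic and 0.20 in blood barcodes, a difference of -0.39. Within Malat1-rich barcodes both were above 0 (0.25 and 0.44), and within Malat1-poor ones both were below 0 (-0.09 and -0.30). Gsdmd was -0.73 and 1.02 (difference -1.75), Zbp1 -0.50 and 1.41 (-1.91), Bnip3 -0.41 and 0.92 (-1.33) and Birc5 0.58 and -0.32 (0.89). Zbp1 was at 0.24 in Malat1-rich lymphatic barcodes. The share of Malat1-rich barcodes moves with genotype in the lymphatic class, and its part in these differences was not tested.

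The barcodes that joined no cell type, 246 in Cre plus and 154 in Cre minus, entered no comparison. Bax was higher there in Cre plus from 919 and 410 UMIs, a log2 ratio of 0.73 (0.56 to 0.90). The share of all genes called in these barcodes is not given here.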

How the results depend on the processing

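No paired analysis was possible because each genotype is 1 library. Of the values that answer a comparison, 174 stayed within 1.5 times or within counting error and 31 did not. In blood barcodes 2 members were called higher, in place of 1, under the looser gate, the stricter gate, Leiden clusters, Malat1-rich barcodes and without the 5 top barcodes of each gene, and 0 in Malat1-poor barcodes, where the members' median was -0.046 over 3 genes, and with a 200 UMI minimum. In lymphatic barcodes 1 was called higher, in place of 0, with Leiden clusters, in Malat1-rich barcodes, without cycling barcodes and without the 5 top barcodes. In melanoma 0 were called in Malat1-poor barcodes, with the 200 UMI minimum and without the 5 top barcodes, and Casp4 reversed to -0.24 in the mean over barcodes. In macrophages 2 were called higher with Leiden clusters and 0 with the 200 UMI minimum. Fas there was no longer called lower (0 genes) with the stricter or looser barcode filter, the stricter gate, Leiden clusters, the 200 UMI minimum or without the 5 top barcodes. Mlkl in macrophages kept its sign in 15 of 15 settings (0.78 to 2.16) and Casp4 in blood barcodes in 16 of 16 (0.72 to 1.55). The 1.55 was reached without the 5 top barcodes. These had held 29.8% of the Casp4 UMIs of blood barcodes for Cre plus but 52.3% for Cre minus, an unequal removal. In Malat1-rich barcodes 6.10% of all genes were called higher in the lymphatic and 7.29% in the blood class. The share of all genes called under the other settings is not given here, so those counts are a description. The stricter UMI minimum tests fewer genes. Leaving out 5 top barcodes can take unequal shares of a gene from the libraries, so its counts of calls do not show robustness. The cause of the other changes was not tested.

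Of the other pathway genes, under settings chosen after seeing the data, 7 were called higher and 5 lower in Malat1-rich lymphatic barcodes, 4 and 3 with median-ratio scaling, and 4 and 3 when centred on genes of like genomic span. In melanoma 1 was lower in Malat1-rich barcodes, and in blood barcodes 2 were lower with span centring. Of all genes, 6.10% were called higher and 11.9% lower in Malat1-rich lymphatic barcodes. The shares of all genes under the other settings of this paragraph are not given here. Depth limits Fas and Casp1 in lymphatic barcodes, at 42 and 2 and at 23 and 3 UMIs.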
